A study of Mus musculus with 4 samples.

Results

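The cytosolic ribosomal protein genes of the mouse were taken as the protein-coding genes whose symbol is Rpl or Rps followed by a digit, together with Rplp0, Rplp1, Rplp2 and Rpsa, leaving out the Rps6k kinases and symbols marked as pseudogenes. The annotation (GENCODE M1 on mm9) held 85 such genes among 22372 protein-coding genes, or 0.38%. Each was joined to the REST-bound regions of mouse embryonic stem cells (ESCs) whose midpoint lay within 20 kb of any of its protein-coding transcription start sites (TSSs). This gave 32 of the 2504 listed regions, at 28 of the 85 genes and on 14 chromosomes. Closeness to these genes and the 20 kb limit chose the regions, so the counts under that limit are a description. The genes were also taken up with earlier results of these data in view.

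The series held 4 samples, of which 1 was analysed here, the REST chromatin immunoprecipitation from wild type ESCs. These were N6 cells of the C57BL/6 strain with intact Rest, grown on irradiated feeder fibroblasts that were removed by passage on gelatin before harvest. Replicate DNA, technical as well as biological, was combined into 1 library, so no spread between replicates could be measured for any value given here. The list gave each region a position and a rank by enrichment, with 1 the most enriched, and neither a height nor a read count, so the depth of each was unknown. The upper part of the list means here the 1252 better ranked regions and the lower part the other 1252. Input DNA and the H3K27me3 samples, from wild type ESCs and from REST knockout ESCs, were not analysed here, and background was therefore not measured. A list of regions holds no expression values, so the ESC label could not be checked against marker genes.

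Ribosomal proteins and ribosomal RNA together build the large and small subunits of the ribosome, and the genes for the proteins are short, present in single active copies on many chromosomes and among the most highly transcribed of dividing cells. Many of them carry snoRNA genes in their introns, and processed pseudogenes of them are scattered through the mammalian genome. REST is a zinc finger repressor of neuronal genes outside the nervous system that binds a bipartite DNA element, the RE1. Ribosomal protein genes are not among the neuronal genes for which REST is known.

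The full RE1 was defined from the list itself as 9 bases of a left element, 2 free bases and 10 bases of a right element, allowing 5 mismatches over the 19 defined bases on either strand. The copies found in regions near ribosomal protein genes are shown for 4 of the 5 regions that hold one, because they are the sequence that REST is known to bind. Each is written 5′ to 3′ on the strand given (mm9), with capitals for bases that match the consensus and lower case for mismatches and the free bases.
Consensus: TTCAGCACCNNGGACAGCGCC
Rps18, first copy, chr17:34109739-34109759, minus strand: gTtgcCACCatGGACAGCtCC
Rps18, second copy, chr17:34109804-34109824, minus strand: gTtgGCACtgtGGACAGCtCC
Rpl38, chr11:114514005-114514025, minus strand: gTCAGCACCatGGAtAGgGCa
Rps19bp1, chr15:80108248-80108268, plus strand: aTCAGCACCacGGACAGCGaC
Rpl11, chr4:135616219-135616239, plus strand: cTCAGCACCaaGGACAGtGCt

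Full RE1s lay in 5 regions, all of them outside the gene and several kilobases from its start. The region of rank 64 lay 17.2 kb upstream of Rps18, which encodes a protein of the small subunit head. It held both copies printed for Rps18, with 5 mismatches each, in intergenic sequence. The TSS of Vps52 was slightly nearer to it, at 16.96 kb. The region of rank 493 lay 15.8 kb upstream of Rpl38, a large subunit gene whose loss alters the axial skeleton of the mouse, with 4 mismatches in its RE1. The region of rank 578 lay 13.5 kb upstream of Rps19bp1, with 2 mismatches. Rps19bp1 fits the symbol rule but encodes a protein that binds RPS19 and is no part of the ribosome. The TSS nearest to this region was that of Cacna1i, a neuronal calcium channel gene, at 9.39 kb. The region of rank 1832 lay 6.89 kb upstream of Rpl11, a large subunit protein that joins the ribosome together with Rpl5, and its RE1 had 3 mismatches. Thus 4 of the 5 regions with a full RE1 were in the upper part of the list, and their median rank was 493. They were 138 to 346 bp wide.

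**Figure D1:**
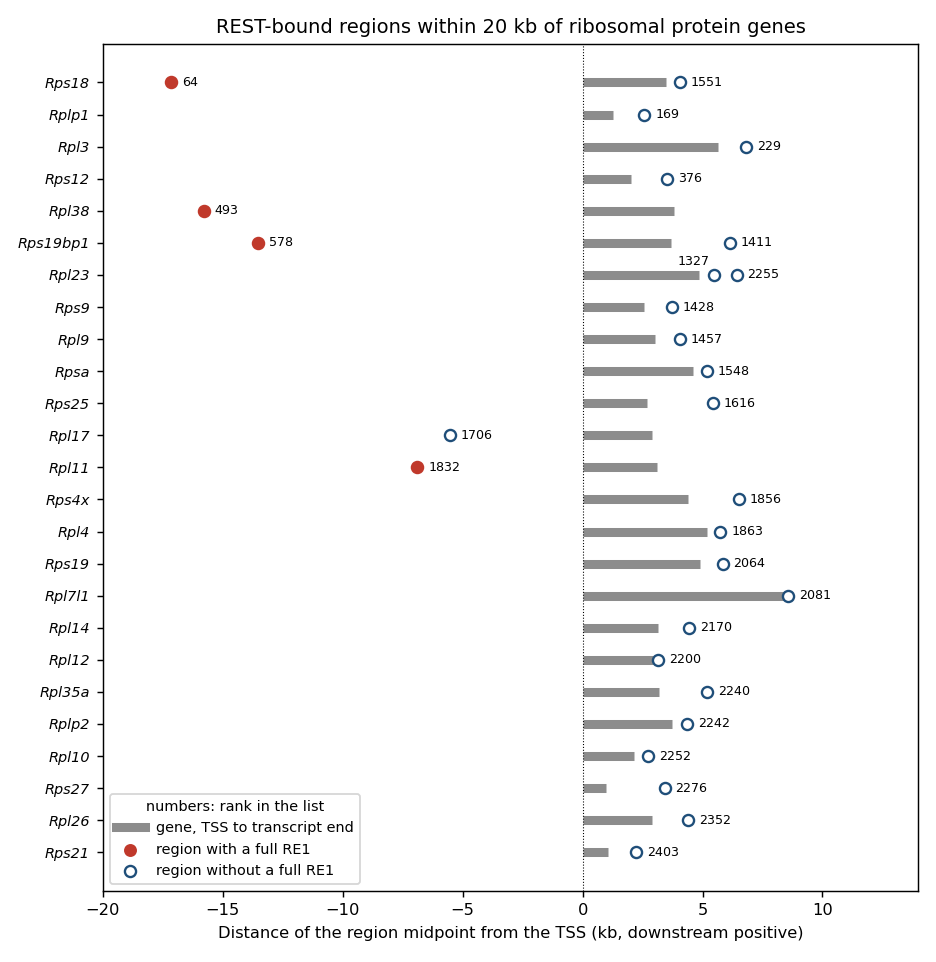
Position of REST-bound regions near ribosomal protein genes, 1 row a gene, for 25 of the 28 genes with a region (28 of the 32 regions). The x axis is the distance of the region midpoint from the nearest protein-coding TSS in kb, grey bars run from that TSS to the nearest transcript end, filled points hold a full RE1, open points do not, and the number is the rank. Of the 24 open points 22 gather 2.24 to 6.81 kb from the TSS, just past the end of the bars, and the 4 filled points lie away from the genes.

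The other 27 regions held no full RE1, and most of them lay a short way past the end of a ribosomal protein gene. With the end taken as the outermost end of the protein-coding transcripts, 24 of the 32 regions had their midpoint 0 to 5 kb past it. They belonged to 23 genes, 27.1% of the 85 (exact 95% interval 18 to 37.8%). The same window held a region at 0.997% of all protein-coding genes and at 1.70% of those that span at most 10 kb, as 81 of the 85 ribosomal protein genes do. The midpoints lay 0.215 to 3.40 kb past the nearest end, with a median of 1.18 kb, and 2.24 to 6.81 kb from the TSS, with a median of 4.68 kb. Of the 24 regions none had a full RE1, and a region without one lay in that window at 0.599% of all protein-coding genes and at 1.09% of the short ones. Within 20 kb of a TSS, 32.9% of the ribosomal protein genes had a region (interval 23.1 to 44%), beside 8.16% of all protein-coding genes and 7.99% of the short ones. The 5 kb window, the comparison with short genes and the count without an RE1 were chosen after the positions had been seen.

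**Figure D2:**
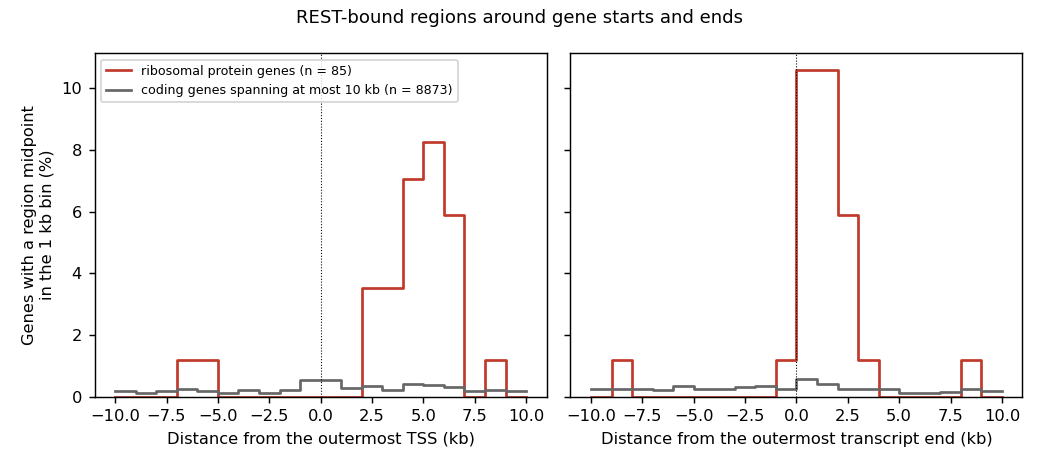
Share of genes with a region midpoint in each 1 kb bin, against the distance from the outermost TSS (left) and from the outermost transcript end (right), in the direction of transcription. The red line stands for the 85 ribosomal protein genes and the grey line for the 8873 protein-coding genes spanning at most 10 kb. The red line reaches 10.6% of genes in each of the first 2 bins past the end and is at 0 in the bins next to the start.

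None of the regions was at a gene start. No midpoint lay within 1 kb of any TSS of a ribosomal protein gene, which with 85 genes allows a share of up to 4.25% (exact interval). The background was low as well, 1.66% of all protein-coding genes and 1.12% of the short ones, so a share like that of other genes could not have been told from 0 here. No region lay 0 to 5 kb before a start either, beside 1.39% of all genes and 1.23% of the short ones. Placed by the nearest feature of the gene, the 32 regions comprised 10 within 1 kb of a transcript end (31.2%), 15 farther downstream, 6 upstream and 1 inside the gene bounds. Among the 790 such pairs of short genes and regions, 13% were at a start, 9.75% at an end, 33.8% downstream and 37.2% upstream. All pairs of protein-coding genes and regions, 2049 in number, had 18.7% at a start and 6.05% at an end.

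The 3 best ranked regions past an end followed Rplp1, Rpl3 and Rps12, and they were among the widest of the list. Rplp1 encodes an acidic protein of the stalk to which elongation factors bind. Its region (chr9:61759403-61760128, rank 169) was 725 bp wide and began beyond the gene in intergenic sequence, with its midpoint 1.33 kb past the end. Rpl3 encodes a core protein of the large subunit close to the peptidyl transferase centre. Its region (chr15:79906546-79907504, rank 229) was 958 bp wide and its midpoint lay 1.19 kb past the end. Rps12 encodes a small subunit protein whose gene hosts snoRNAs. Its region (chr10:23502760-23504236, rank 376) was 1476 bp wide and its midpoint lay 1.49 kb past the end. In width the 3 regions were 23rd, 8th and 2nd of the 2504. The 80 bases about each midpoint are shown because they are the best ranked sequence of this kind and hold no match within the limit for an RE1. They are written 5′ to 3′ on the strand of the gene (minus in each case, mm9), with capitals for bases that match the consensus, or its reverse complement, where it matched best within the window.
Rplp1, chr9:61759726-61759805: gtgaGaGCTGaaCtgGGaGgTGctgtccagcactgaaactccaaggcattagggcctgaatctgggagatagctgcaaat
Rpl3, chr15:79906986-79907065: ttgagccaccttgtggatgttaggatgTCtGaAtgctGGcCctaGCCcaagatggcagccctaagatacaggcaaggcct
Rps12, chr10:23503459-23503538: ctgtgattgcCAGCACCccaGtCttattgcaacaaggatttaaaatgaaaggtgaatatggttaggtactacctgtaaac
The best match in these windows had 8, 9 and 10 mismatches. Over the whole region it had 8, 7 and 8, beside a median of 5 in the other regions near genes. Among those others without a full RE1 the median was 7. The midpoint is not a summit, since the list gave none.

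The remaining 21 regions past an end were in the lower part of the list, and 19 of them are described. Those of the large subunit are given first, in the order of rank with the distance of the midpoint past the nearest transcript end. Rpl23, which lies at the face between the subunits, had a pair of regions, one of rank 1327 (chr11:97637991-97638425, 0.633 kb) and one of rank 2255 (chr11:97637189-97637363, 1.57 kb). Rpl9 had a region of rank 1457 (chr5:65778461-65778684, 1.03 kb). Rpl4, which lines the tunnel of the nascent peptide, had one of rank 1863 (chr9:64026788-64027078, 0.564 kb). These genes had their regions in intergenic or promoter sequence, the promoters being those of the next gene. Rpl14 had a region of rank 2170 (chr9:120484938-120485243, 1.32 kb). Rpl12, at the base of the stalk, had one of rank 2200 (chr2:32820058-32820405, 0.215 kb), the least distance of the 24. Rpl35a, one of the genes mutated in human Diamond-Blackfan anaemia, had one of rank 2240 (chr16:33062197-33062417, 2.03 kb). All 3 were nearer to the TSS of another gene. Rplp2, the partner of Rplp1 in the stalk, had a region of rank 2242 (chr7:148638001-148638191, 0.612 kb). Rpl10, an X-linked gene whose product joins the large subunit late, had one of rank 2252 (chrX:71518910-71519213, 0.587 kb), in an intron of Dnase1l1. Rpl26, near the exit of the tunnel, had one of rank 2352 (chr11:68719478-68719574, 1.49 kb). The last of these was 96 bp wide and lay within the bounds of Rpl26, in an intron, but past the end of its protein-coding transcripts.

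Small subunit genes showed the same placement. Rps9, near the mRNA entry, had a region of rank 1428 (chr7:3659409-3659895, 1.15 kb). Rpsa, also known as the laminin receptor, had one of rank 1548 (chr9:120041931-120042225, 0.591 kb). The regions of Rps9 and Rpsa were intergenic and nearest to the TSS of the ribosomal protein gene itself. Rps18 had, beside its upstream region, one of rank 1551 past its end (chr17:34088349-34088770, 0.385 kb). Rps25 had one of rank 1616 (chr9:44221127-44221342, 2.75 kb) in a coding exon of Ccdc84. Rps4x, an X-linked gene, had one of rank 1856 (chrX:99378029-99378285, 2.12 kb). Of these 3, only Rps4x had its own TSS as the nearest. Rps19, the first gene found mutated in Diamond-Blackfan anaemia, had one of rank 2064 (chr7:25675648-25675892, 0.945 kb). Rps27 had one of rank 2276 (chr3:90013999-90014316, 2.44 kb) in an intron of Nup210l. Their widths were 244 and 317 bp. Rps21 had one of rank 2403 (chr2:179994259-179994375, 1.17 kb), in the 3′ UTR of Cables2 and 116 bp wide. Rps19bp1, counted with neither subunit, had one of rank 1411 past its end (chr15:80088287-80088912, 2.45 kb), 0.629 kb from the end of Atf4, which runs the other way. In all, 11 of 51 large subunit genes (21.6%, 11.3 to 35.3%) and 11 of 33 small subunit genes (33.3%, 18 to 51.8%) had a region past the end, and the intervals overlap.

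Only 3 regions were neither past an end nor with a full RE1, and 2 of them are described. One of rank 1706 lay 5.52 kb upstream of Rpl17, which is also near the exit of the peptide tunnel, with a left element and a best match of 6 mismatches. One of rank 2081 lay 0.180 kb inside the end of Rpl7l1, in its 3′ UTR. Rpl7l1 was the only 1 of 8 genes named as a like copy or as a paralog of another ribosomal protein gene to have a region. The others were Rpl10l, Rpl22l1, Rpl36al, Rpl39l, Rpl3l, Rps27l and Rps4y2. Without these 8 and Rps19bp1, 26 of 76 genes (34.2%, 23.7 to 46%) had a region and 22 had one past the end.

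The 57 genes without a region within 20 kb included genes of both subunits. Among them were Rplp0, the central protein of the stalk, Rpl5, the partner of Rpl11, and Rps3, Rps6 and Rps14 of the small subunit. At the limit of 20 kb, the farthest of the described regions inside was that of Rps18 at 17.2 kb. The nearest outside were a second region of Rpl11 at 21.9 kb (rank 2050), one of Rps10 at 22.2 kb (rank 2143) and one of Rpl4 at 23.8 kb (rank 2452). Next came a region of Rpl22 at 26.4 kb (rank 997). Of these the regions of Rps10 and Rpl22 had a full RE1.

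Full RE1s were counted by gene and by region. By gene, 5 of 85 had a full RE1 in a region up to 20 kb away (5.88%, 1.94 to 13.2%), beside 4.47% of all protein-coding genes and 4.32% of the short ones, both within that interval. A region without a full RE1 was present at 25 of 85 (29.4%, 20 to 40.3%), beside 4.13% and 4.11%. By region, a full RE1 was present in 5 of 32 (15.6%, 5.28 to 32.8%), beside 58.1% of all 2504 regions and 55.1% of the other 1299 regions within 20 kb of a protein-coding TSS. No RE1 element of any kind was found in 16 (50%), beside 18.9% of those other regions. A left element without a full RE1 was found in 10 (31.2%), beside 10.5% of the other regions, and a right element alone in 1, that of Rplp1 (3.12%), beside 11.4%. Single elements were allowed 1 mismatch and were counted only in regions without a full RE1. The left element was called first, so a region counted there could also hold a right one. Among regions without a full RE1, no element was found in 59.3% of the 27 here beside 42% of 583 others. A left element was found in 37% beside 23.3%, and a right element alone in 3.7% beside 25.4%. The 27 were wider, with a median of 290 bp beside 245 bp, and a wider region has more places for a single element to match. Flanking windows were not searched for single elements. None of the 32 had both elements at a wider spacing. By position, 4 of the 6 upstream regions had a full RE1 and none of the 24 past an end did, which allows a share of up to 14.2%. Windows of the same width 2 kb to each side of the 32 regions held a full RE1 in 2 of 64 (3.12%), beside 0.843% of the 4983 windows about all regions. The share with a full RE1 was also taken for regions of other genes by position. Here a region within 1 kb of any protein-coding TSS counted as at a start, as 6 of the 24 regions past an end would. With the regions of ribosomal protein genes left out, a full RE1 was present in 45.1% of 133 regions past an end, 53.3% of 362 at a start and 57.6% of 804 elsewhere within 20 kb.

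**Figure D3:**
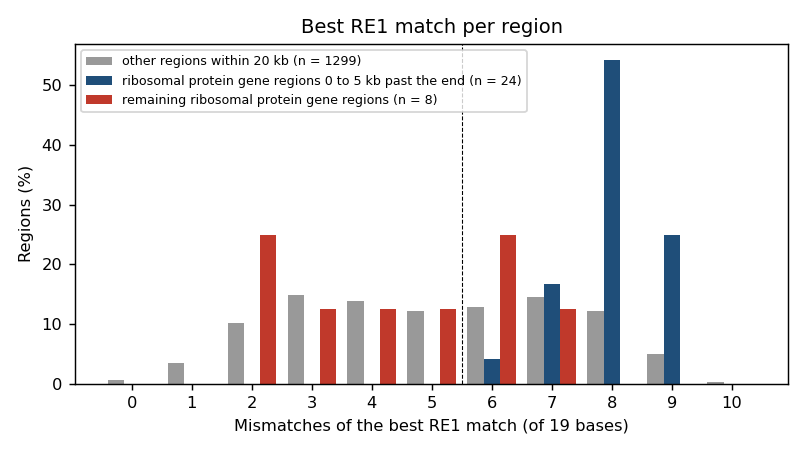
Mismatches of the best RE1 match in each region (x axis, of 19 defined bases) against the percentage of regions (y axis). Blue bars show the 24 regions 0 to 5 kb past the end of a ribosomal protein gene, red bars the remaining 8 regions near these genes, and grey bars the other 1299 regions within 20 kb of a protein-coding TSS; the dashed line marks the limit of 5 mismatches. All blue bars lie at 6 to 9 mismatches, with 54.2% of regions at 8.

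In rank the regions were mostly low. The median was 1769 of 2504 (exact 95% interval of the median 1411 to 2170, over regions), with a range from 64 to 2403, and 7 of 32 (21.9%) were in the upper part. The other regions within 20 kb of a TSS had a median of 1153, with 53.9% in the upper part. Among these others, lack of an RE1 went with a lower place in the list, with a median rank of 1582 for the 583 others without a full RE1 and 848.5 for the 716 with one. The regions of ribosomal protein genes without a full RE1 had a median rank of 1863 (n = 27).

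Several of the regions were wide for their rank. The 3 without a full RE1 in the upper part, of Rplp1, Rpl3 and Rps12, had a median width of 958 bp, beside 301 bp in 211 other regions of the upper part without an RE1. In the lower part the 24 regions had a median of 263 bp and a range from 96 to 625 bp, beside 203.5 bp in 372 others. Great width was not particular to ribosomal protein genes. Past the ends of genes in the other lists below, regions without a full RE1 were 982 bp (Eef1a1), 647 bp (Gapdh) and 784 and 816 bp (Hspa8) wide. Others there were narrow, such as those of Ppia (233 bp) and Eef1b2 (196 bp). Over all 32 the median was 292 bp. They were also somewhat poorer in CpG than the other regions within 20 kb, with a median observed over expected ratio of 0.16 beside 0.31. The median GC content was 50.2% beside 53.7%. The groups differed in placement along genes, and neither value was compared at like positions.

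**Figure D4:**
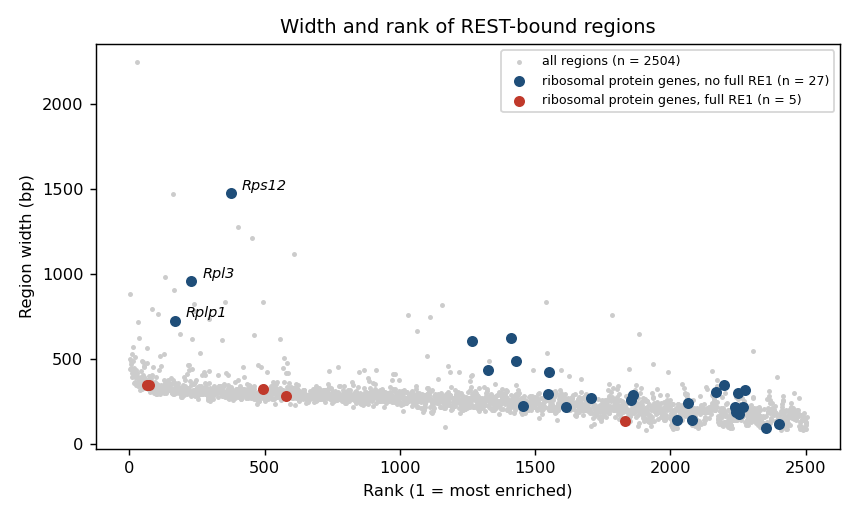
Width in bp (y axis) against rank (x axis, 1 the most enriched) for all 2504 regions in grey, with regions near ribosomal protein genes in red where they hold a full RE1 (n = 5) and in blue where they do not (n = 27). The points of Rps12 at 1476 bp, Rpl3 at 958 bp and Rplp1 at 725 bp stand above most grey points of like rank. Some grey points nearby are also high, such as rank 160 at 1473 bp and rank 163 at 905 bp, both wider than Rplp1.

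The regions were then placed against the neighbouring genes. The ribosomal protein gene had the nearest TSS in 16 of the 32 cases and another gene did in 16. Of the 24 regions past an end, 6 had the TSS of another gene within 1 kb, 13 within 5 kb, and 11 had none within 5 kb. Among the other 1299 regions within 20 kb of a protein-coding TSS, 362 had a TSS within 1 kb, a similar share. The 6 were promoter regions of the next gene. For example, the region past Rps18 had its midpoint 0.126 kb from the TSS of B3galt4. The region past Rpl4 had its midpoint 0.171 kb from the TSS of Snapc5. For the regions of Rpl23, the TSS of 1700001P01Rik was 0.044 and 0.976 kb away. By contrast, the nearest other TSS to the regions of Rplp1, Rpl3 and Rps12 was 33.5, 14.7 and 13.3 kb away. At the midpoint, 13 of the 24 were intergenic, 6 in a promoter, 3 in an intron, 1 in a coding exon and 1 in a 3′ UTR, and 4 were inside another protein-coding gene. These classes, the nearest TSS and the counts within 5 kb have no share of other regions beside them here. None of the 32 regions overlapped an annotated pseudogene or snoRNA. The share of all regions that do so was not taken, so this count has no background beside it. Of the 85 genes, 30 overlap a snoRNA gene, and this share was not taken for other genes either.

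Other lists of genes showed where this placement was shared. Regions without a full RE1, 0 to 5 kb past an end, numbered 124 over all genes. Of these 24 (19.4%) followed a ribosomal protein gene and 16 followed a gene of the other lists. Among cytosolic elongation factors it was 3 of 7 genes (42.9%, 9.9 to 81.6%), namely Eef1a1 (rank 133), which brings aminoacyl-tRNA to the ribosome, Eef2 (rank 970), the translocase, and Eef1b2 (rank 1732). Among genes with an initiation factor symbol (Eif), whatever their role, it was 3 of 31 (9.68%, 2.04 to 25.8%). These were Eif5a (rank 722) and the helicase genes Eif4a2 (rank 1029) and Eif4a1 (rank 1710). Ribosome biogenesis genes had 2 of 23 (8.7%, 1.07 to 28%), Npm1 (rank 1431) and Nop56 (rank 2306). Gnb2l1 (rank 1786), which encodes the small subunit scaffold RACK1, was the 1 of 7 among ribosome-associated genes and fusions. Outside translation, 5 of 24 abundant housekeeping genes had such a region (20.8%, 7.13 to 42.2%). These were Gapdh (rank 187), Hspa8 (ranks 243 and 1157), Hsp90ab1 (rank 1541), Ppia (rank 1673) and Tuba1b (rank 2167). Mitochondrial ribosomal proteins, which are encoded by separate nuclear genes, had 1 of 77 (1.3%, 0.0329 to 7.02%), Mrps16 (rank 2205). Within 20 kb of a TSS, 7 of these 77 had a region of any kind (9.09%). Of the 10 best ranked regions of this kind over all genes, 2 followed Rplp1 and Rpl3, and 3 followed Eef1a1, Gapdh and Hspa8. The region past Eef1a1 also lay past the end of Mto1, a gene of none of these lists. The other 5 followed genes of none of these lists, named here after their values were seen, which were Ripply2 (rank 136), Bax and Ftl1 (rank 163), Kptn (rank 164), Cnih2 (rank 195) and Prr19 (rank 271). The abundance of the transcripts was not measured here, and its part in this placement was not tested.

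**Figure D5:**
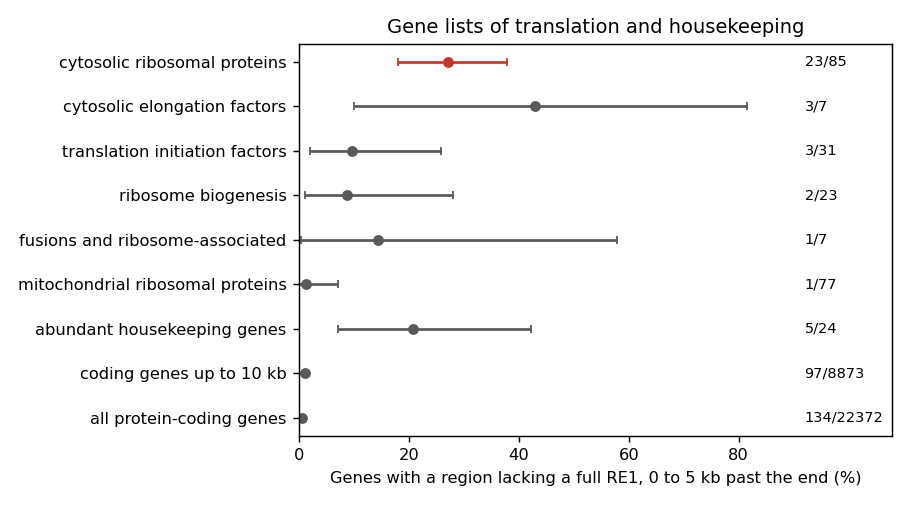
Percentage of genes with a region lacking a full RE1 at 0 to 5 kb past the end (x axis), for the ribosomal protein genes in red and 6 other gene lists and 2 backgrounds in grey, with exact 95% intervals as bars and the number of genes at right. Ribosomal protein genes stand at 27.1%, mitochondrial ribosomal proteins at 1.3% and all protein-coding genes at 0.599%.

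The promoters of the ribosomal protein genes were looked at for the same element, because no region lay there. RefSeq windows from GRCm38.p6, 250 bases before to 50 after the start, were matched by symbol for 63 of the 85 genes and gave 75 windows. A full RE1 was found in 1 of them, that of Rpl37 (1.33%), beside 1.49% of 32851 windows of all genes, and in none of the 27 windows of genes with a region. The letters CCGGAAG, a core bound by ETS factors, were found on either strand in 33.3% of the 75 windows and 8.86% of all. The letters AAGATGGC, a YY1 core, were in 10.7% beside 2.75%, and GGGCGG, an Sp1 core, in 60% beside 35.7%. The TATA box letters TATAAA were in 9.33% beside 13.6%. Overlap between matches of different motifs was not removed, and a match is a description of the letters only.

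Several limits bear on all of these values. The list holds more regions than the set that the study describes, and which of its regions are outside that set was not determined. The study's methods kept uniquely mapped reads, but whether this holds for the list used here is not given, and the exons of ribosomal protein genes have near-identical processed copies elsewhere. The part of read mapping in the placement of the regions was not tested. Whether the same sequences were enriched in input DNA was not tested either.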

How the data were processed

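Chromatin of wild type ESCs was sheared, immunoprecipitated with an antibody against REST, and 1 pooled library was read on a Genome Analyzer II (Illumina). The study's methods name Bowtie, unique reads only, and the overlap of PeakRanger and MACS peaks on mm9. The submitters' processing notes name BWA. Versions, and whether the list of 2504 regions is that overlap, are not given in the sources used here. The deposited list gives each region a rank score set by the authors, the only measurement, and the depth per region is unknown. Coordinates of regions are printed as deposited, and sequences were read as though starts count from 0. Coordinates of sequences count from 1.

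Regions were joined to GENCODE M1 genes on NCBIM37 by midpoint. Places were assigned in the order start, end (both within 1 kb), inside, upstream or downstream. A promoter is the 1 kb before a TSS. RE1s were searched on both strands with non-overlapping matches. The consensus was read from 551 exact copies of the left element. As planned, bases under 60% would have been left free, which left 14 defined bases and matched 65.2% of flanking windows, so after seeing this the most common base was taken at all 10 right positions. Wider spacing meant 3 to 20 bases. Intervals of shares are Clopper-Pearson 95% intervals. That of the median rank runs between ordered ranks chosen by binomial quantiles and covers at least 95%. All of them cover counting error over genes or regions only. No test was made, since the genes and lists were chosen with earlier results of these data known. Every ribosomal protein gene with a region is named, except 3 that are not reported here by name or in the map and remain in the counts. Other genes come from the lists or have the nearer TSS. Python 3.11.15, scipy 1.17.1, pysam 0.24.0, numpy 2.4.6 and matplotlib 3.10.9 were used, and the search was tested on simulated data.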

Additional observations from a re-analysis of the deposited data

How the results depend on the processing

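The 28 genes with a region within 20 kb became 13 at 5 kb, 7 with the better ranked 1252 regions only and 16 where the gene had to have the nearest TSS, and stayed between 26 and 34 at 10 kb, at 50 kb, by region edge and without Rps19bp1 and the paralogs. The 5 regions with a full RE1 became 3 at 3 mismatches, 8 at 6 mismatches, 0 at 5 kb, and 27 under the planned consensus of 14 defined bases, which matched 95.2% of all regions. The 10 regions at a gene end became 3 within 500 bases and 19 within 2 kb, while the count at a start was 0 at every window tried. The median rank of 1769 became 2170 at 5 kb. Past the end, 18, 23 and 25 regions lay within 2, 3 and 10 kb, and 1 of them had a full RE1 at 10 kb or with 6 mismatches. The window past the end, the set without paralogs, the planned consensus and counting coordinates from 1 were added after seeing the data. No paired analysis was possible because 1 pooled library was analysed. Ranks without counts leave the precision of each region unknown.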
